A study of Mus musculus with 18 samples.

Results

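The library of a pooled CRISPR knockout screen targeted 76 genes of cell death, and 6 of them encode BH3-only apoptosis inducers: Bad, Bbc3, Bcl2l11, Bid, Bmf and Pmaip1. They were taken by name as a gene family, with no threshold on a measured value, though with earlier results of these data known. With 3 sgRNAs per gene they account for 18 of the 252 sgRNAs, of which 24 are non-targeting. The host cells were Ba/F3, a mouse pro-B cell line that grows in interleukin-3, in the form that the design text calls sensBa/F3. All groups carried the library and had been cultured for 10 days after transduction. The ITPK1-WT background kept the inositol phosphate kinase ITPK1, and the ITPK1-KO background was a pool of 6 clones in which it had been deleted. Cells of both backgrounds were mixed and injected into the peritoneum of 8 hCD89-transgenic mice, which carry the human receptor for IgA on myeloid cells. Of these, 4 mice (1 to 4) received PBS as vehicle and 4 (5 to 8) received anti-hHer2 IgA. Living cells washed from the peritoneum 16 h later were split by background in a sorter. That gave 16 recovered libraries, beside 1 library of each background from before injection. The backgrounds were told apart by tracking dyes (CT Violet on ITPK1-WT and CT Yellow on ITPK1-KO cells). The effects of dye, clonal origin, transduced pool and genotype cannot be told apart. As all mice shared a single transduced pool per background, p-values here reflect only how mice given that pool varied. The labels give no age or sex of the mice.

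BH3-only proteins are the sensors of mitochondrial apoptosis. Through their BH3 helix they occupy the groove of pro-survival BCL-2 proteins, and some also activate BAX and BAK directly, which then open the outer mitochondrial membrane and release cytochrome c to the apoptosome. In mouse cells that depend on interleukin-3, BIM (Bcl2l11) and PUMA (Bbc3) are known mediators of death after cytokine withdrawal, while survival signalling keeps BAD phosphorylated and inactive. In such a screen, a gain in abundance is commonly read as marking cells that survived or grew better than the rest, and a loss as the reverse. Abundance is relative, however, so it can also move with scaling and with the sampling of cells.

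The sgRNAs on which the results turn are shown 5′ to 3′ as deposited, with the 12 bases next to the PAM in capitals, the stretch that tolerates mismatches least. The 3 against Bbc3 are shown because they differed between backgrounds together, those against Bad because they were scarce at the start or differed between backgrounds, and those against Bid and Bmf because they passed an IgA test.
Bbc3 sg-1: tcgcgggcTAGACCCTCTAC
Bbc3 sg-2: ggtcaccgCAGCCGGCCCAG
Bbc3 sg-3: aggctgcaGGATACAGCGGA
Bad sg-1: tcgccacaGTTCGTACCCAG
Bad sg-2: agacgctaGTGCTACAGATA
Bid sg-1: ccacaacaTCCAGCCCACAC
Bmf sg-2: gaagagctGGAGTCGACTGA
Bmf sg-3: cacaaggcAGCATGACACCC
The 3 Bbc3 sgRNAs hold 65%, 80% and 60% G or C in that order. Among all 18 sgRNAs the G and C content ran from 40% to 80%, with Bbc3 sg-2 at the top.

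Totals ran from 317564 to 808586 reads per library. Between 657000 and 2000000 cells were sorted per recovered library, 2000000 for every vehicle library and 657000 to 2000000 for IgA libraries. Libraries of a group differed by more than sampling noise (chi-square per degree of freedom 2.24 to 5.62). The top of that range came from the ITPK1-WT library of IgA mouse 6 against those of mice 7 and 8. Judged by sample numbers in the read names, vehicle mice and mouse 5 shared 1 sequencing sheet, and mice 6 to 8 shared another with the starting libraries, so the arm is partly confounded with the sheet. As a check on the labels, Itpk1 sgRNAs had, before injection, 24.3% of the non-targeting abundance in the ITPK1-WT pool and 68.9% in the ITPK1-KO pool. The counts hold no reads of the deleted locus itself.

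Before injection the 6 genes were unevenly represented. Their 3 sgRNAs, summed and set against an average trio of non-targeting sgRNAs, reached in ITPK1-WT cells 44.8% for Bad, 68.3% for Bbc3, 82.6% for Pmaip1, 85.1% for Bcl2l11, 89.4% for Bid and 100.5% for Bmf. In ITPK1-KO cells the same levels were 50.2% for Bad, 52.0% for Bbc3, 80.3% for Bcl2l11, 82.2% for Pmaip1, 89.5% for Bid and 101.7% for Bmf. Bad and Bbc3 were thus the least abundant of the 6 genes in both pools, and Bmf sgRNAs were at the non-targeting level. The low sum of Bad, whose product is held in check by growth factor signalling, came in large part from sg-2. That sgRNA had 108 reads in ITPK1-WT and 111 reads in ITPK1-KO cells, 3.38% and 3.84% of an average non-targeting sgRNA. Bad sg-3 stood at 68.7% and 76.9%, and Bad sg-1 at 62.5% in ITPK1-WT cells. Bbc3, which encodes the p53 target PUMA, held 1.16% of all reads in ITPK1-WT cells (95% exact binomial interval 1.14% to 1.19%) and 0.872% in ITPK1-KO cells (0.847% to 0.898%). These intervals do not overlap, but they cover counting error only, and there was 1 library per pool. Non-overlap was not particular to Bbc3. Bad (0.741% to 0.787% in ITPK1-WT and 0.818% to 0.868% in ITPK1-KO cells) and Bcl2l11 (1.42% to 1.48% and 1.32% to 1.38%) showed it too. The intervals of Bid, Bmf and Pmaip1 overlapped. Outside the members such intervals were computed for Itpk1 only, so no share over all genes can be given. How well an sgRNA was represented in the cloned library was not measured here, so starting levels cannot be split into synthesis and growth.

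In ITPK1-WT cells, sgRNAs against Bbc3 were more abundant after IgA than after vehicle, while those against Bid and Pmaip1 were less abundant. These shifts were small, a rise of 5.91% for Bbc3 and changes of −4.16% for Bid and −4.08% for Pmaip1. Levels are normalised read counts (CPM, counts scaled by TMM to a common total), summed over the 3 sgRNAs of a gene. CPM were scaled over all 18 libraries, but the fitted changes within the libraries of each fit, so the 2 differ slightly. From log2 CPM the differences were 0.089 for Bbc3, −0.057 for Bid and −0.055 for Pmaip1. Bbc3 stood at 11745, 11644, 11882 and 11446 CPM in vehicle mice 1 to 4 and at 12643, 12562, 12080 and 12418 CPM in IgA mice 5 to 8. Every IgA mouse lay above every vehicle mouse, and the group means were 11679 ± 184 and 12426 ± 248 CPM (SD, n = 4 each). The log2 fold change was 0.083 (SE 0.018 over mice, adjusted p = 0.00290 by edgeR's quasi-likelihood test). The exact two-sided permutation test over mice gave p = 0.0286, the smallest that 4 against 4 mice allow.

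Bid encodes the protein that caspase-8 cleaves to link death receptors to mitochondria. Its sgRNAs stood at 15780, 15516, 15764 and 15675 CPM in vehicle mice and at 14951, 15504, 15174 and 14704 CPM in IgA mice. The arms did not overlap, though IgA mouse 6 came close to the lowest vehicle mouse. Bid fell by 0.061 on the log2 scale (SE 0.017, adjusted p = 0.0108 by edgeR, exact permutation p = 0.0286). Pmaip1 encodes NOXA, which mainly neutralises MCL1. It stood at 14084, 14160, 13974 and 14410 CPM in vehicle mice and at 13611, 14163, 13184 and 13561 CPM in IgA mice. Here IgA mouse 6 lay among the vehicle mice and the other IgA mice lay below them. Pmaip1 fell by 0.060 (SE 0.023, adjusted p = 0.0183 by edgeR), but the exact permutation test gave p = 0.114. Without mouse 4, 5 or 7 it missed the threshold (adjusted p = 0.0700, 0.0526 and 0.0997).

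The other members did not pass in ITPK1-WT cells. Bmf, a BH3-only protein tethered to the cytoskeleton until released by stress, had 17307 ± 350 CPM in vehicle and 17001 ± 212 CPM in IgA mice (log2 fold change −0.033), and passed only without mouse 4 (−0.046, adjusted p = 0.0478 by edgeR). Bcl2l11 had 14100 ± 173 and 13931 ± 320 CPM (−0.022, adjusted p = 0.356). Bad had 8020 ± 307 and 7930 ± 166 CPM (−0.021, adjusted p = 0.599). The arms of these 3 genes overlapped. In all, 3 of 6 members passed, against 39% of the 77 entries tested (76 genes and the summed non-targeting sgRNAs). Of these 3, 1 was higher (background 20.8%) and 2 were lower (background 18.2%). Arms that did not overlap were found for 2 members, Bbc3 and Bid, and for 35.1% of all entries. The share of members that moved was thus near the background in both counts. The median absolute log2 fold change was 0.046 for the members and 0.040 for all entries.

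**Figure D1:**
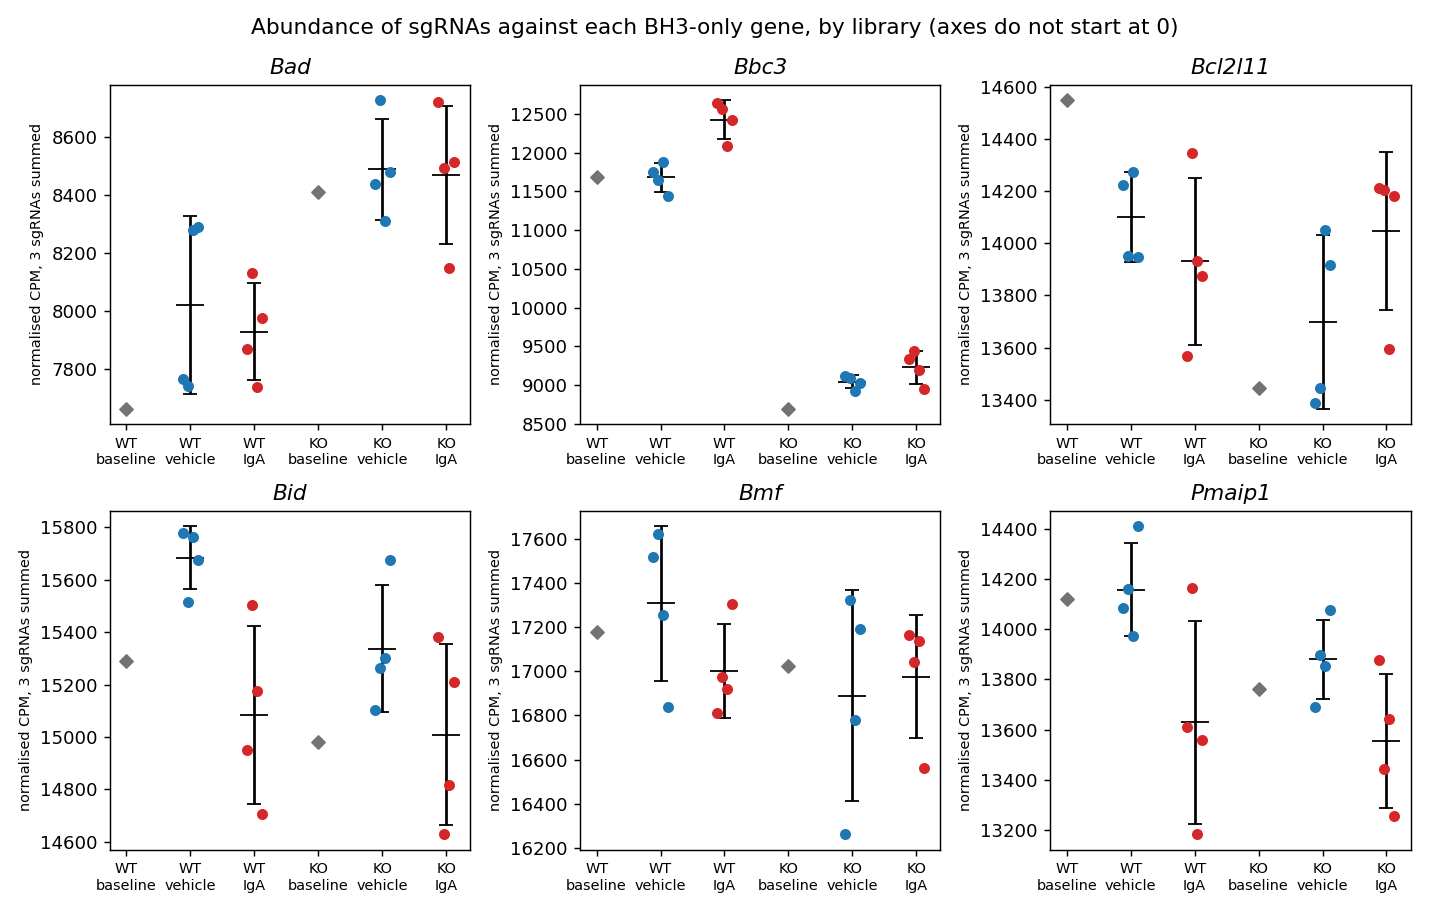
Normalised CPM (vertical axis, 3 sgRNAs summed, not starting at 0) of each BH3-only gene in every library, by background and arm. Points are mice, diamonds the single libraries from before injection, and bars the mean ± SD of 4 mice. Bbc3 in ITPK1-WT cells shows all 4 IgA mice (12080 to 12643) above all vehicle mice (11446 to 11882), and no ITPK1-KO library above 9438.

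The sgRNAs of a gene did not all move alike. For Bbc3, sg-3 had 3789, 3849, 3960 and 3781 CPM in vehicle mice and 4329, 4198, 4135 and 4254 CPM in IgA mice, with no overlap (log2 fold change 0.13, SE 0.021, adjusted p = 0.00440 by edgeR). Bbc3 sg-2 changed by 0.10 (adjusted p = 0.0515) and sg-1 by 0.025 (adjusted p = 0.603), and neither passed. For Bid, sg-1 fell by 0.089 (adjusted p = 0.0267), while sg-2 (−0.049) and sg-3 (−0.032) did not pass. For Bmf, sg-3 fell by 0.099 (adjusted p = 0.0105), from 7258 ± 170 to 6807 ± 107 CPM, while sg-1 (0.00032) and sg-2 (0.024) were close to 0. For Pmaip1, sg-2 fell by 0.090 (adjusted p = 0.0182), sg-3 stood at −0.070 (adjusted p = 0.0821) and sg-1 at 0.035. The sgRNAs of Bad (−0.060, 0.063 and 0.0080 for sg-1 to sg-3) and of Bcl2l11 (−0.051, 0.017 and −0.0086) had mixed signs, and none passed. Thus 4 of 18 member sgRNAs passed, against 27.8% of the 252 sgRNAs. Of these, 1 was higher and 3 were lower, against 13.9% of the library in each direction. The 3 sgRNAs of a gene had 1 sign for 2 of the members, Bbc3 and Bid, and for 44.7% of the 76 genes. Of the 4 calls, that of Bbc3 sg-3 held whichever mouse was left out (adjusted p at most 0.0201), but not with the sheet as a covariate (0.16, adjusted p = 0.0897). Bid sg-1 lost its call without mouse 1, 5, 7 or 8, Pmaip1 sg-2 without mouse 3, 4, 5 or 7, and Bmf sg-3 without mouse 1, at adjusted p up to 0.209. Without mouse 6, 7 of 18 passed, beside 94 of 252 in the library.

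These shifts depended on what the libraries were scaled to. The summed non-targeting sgRNAs themselves fell by 0.052 in ITPK1-WT cells (adjusted p = 0.00471 by edgeR), nearly as much as Bid and Pmaip1. When libraries were scaled to them, Bbc3 stood at 0.13 (adjusted p = 2.7e-05), Bid at −0.010 (adjusted p = 0.686) and Pmaip1 at −0.0090 (adjusted p = 0.752), so Bbc3 was the 1 member that passed. On that scale the median of all entries moved from −0.0047 to 0.047, and 34 entries were higher and 2 lower in place of 16 and 14. Bbc3 was also the 1 member past the threshold with the sheet as a covariate (0.10, adjusted p = 0.0466), beside 9 of 77 entries. Bid (−0.083, adjusted p = 0.0530) and Pmaip1 (−0.071, adjusted p = 0.173) missed the threshold there with differences larger than without the covariate. That fit rests on mouse 5 against the vehicle mice of its sheet. Mouse 5 minus the vehicle mean was 0.11 for Bbc3, −0.069 for Bid and −0.057 for Pmaip1. The part of the sheet and of the number of cells sorted in these shifts was not tested beyond these values.

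**Figure D2:**
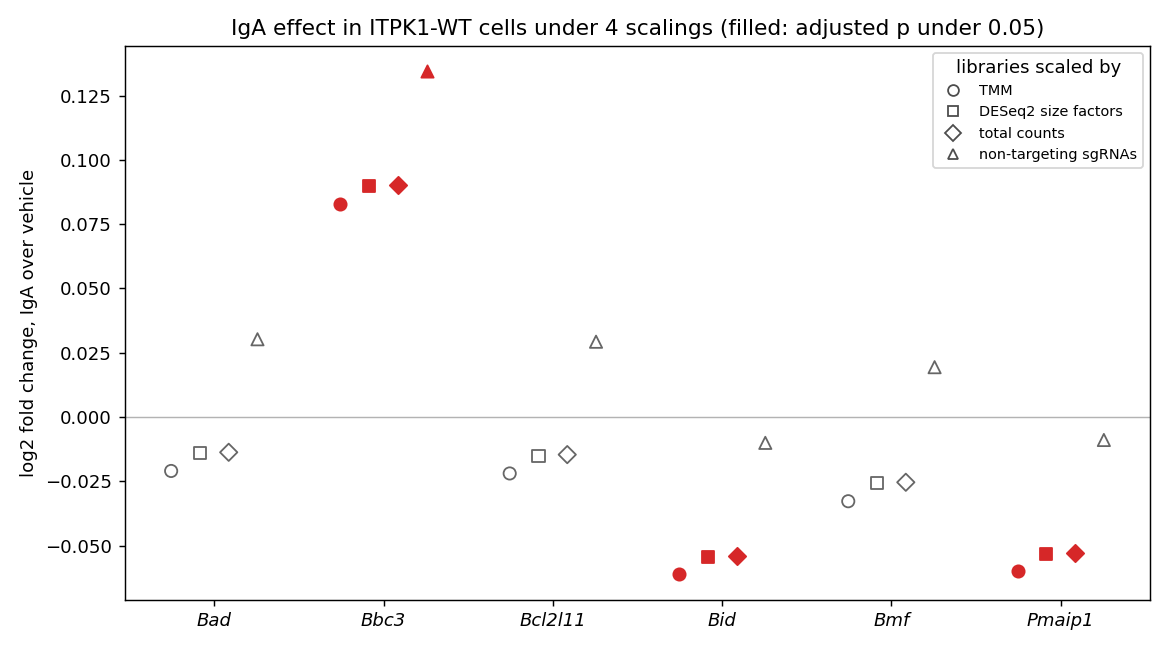
Log2 fold change of IgA over vehicle in ITPK1-WT cells (vertical axis) for each BH3-only gene with libraries scaled by TMM, DESeq2 size factors, total counts or the non-targeting sgRNAs. Filled symbols have an adjusted p under 0.05. Bbc3 is filled under all 4 scalings (0.083 by TMM, 0.13 by non-targeting sgRNAs), whereas Bid and Pmaip1 lose their call under the last, where Bad, Bcl2l11 and Bmf change sign.

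In ITPK1-KO cells no BH3-only gene passed the IgA comparison. Bbc3 had 9112, 9097, 8928 and 9028 CPM in vehicle mice and 9332, 9438, 9193 and 8944 CPM in IgA mice. IgA mouse 8 lay among the vehicle mice and the other IgA mice lay above them (log2 fold change 0.031, SE 0.018, adjusted p = 0.388 by edgeR). Bcl2l11, which encodes BIM, had 13387, 13443, 14051 and 13918 CPM in vehicle mice and 14211, 14205, 13595 and 14183 CPM in IgA mice. IgA mouse 7 lay among the vehicle mice and the other 3 lay above them (0.039, adjusted p = 0.197). Bid had 15336 ± 243 and 15009 ± 346 CPM (−0.031, adjusted p = 0.237), and Pmaip1 13880 ± 158 and 13556 ± 266 CPM (−0.032, adjusted p = 0.226). Bmf (0.0085, adjusted p = 0.783) and Bad (−0.0031, adjusted p = 0.928) were near 0. By edgeR 0 of 6 members passed, and 0 had an unadjusted p under 0.05, against 13% of 77 entries called (7.79% higher and 5.19% lower). DESeq2's Wald test also gave 0. Arms did not overlap for 20.8% of all entries and for 0 members. The members' median absolute log2 fold change was 0.031, and that of all entries 0.027.

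Of the 18 member sgRNAs, 1 passed in ITPK1-KO cells, against 10.4% of 251 sgRNAs (5.58% higher and 4.78% lower). Bmf sg-2 had 4699, 5422, 4957 and 5151 CPM in vehicle mice and 5316, 5430, 5543 and 5277 CPM in IgA mice. Vehicle mouse 2 lay within the range of the IgA mice. The log2 fold change was 0.092 (adjusted p = 0.0372 by edgeR), and the exact permutation test gave p = 0.0857. This call was lost without mouse 1, 3, 5, 6 or 7 (adjusted p up to 0.291). The other Bmf sgRNAs stood at 0.0013 (sg-1) and −0.046 (sg-3). Bad sg-2 had the widest difference of the members, from 219, 230, 207 and 210 CPM in vehicle mice to 294, 219, 276 and 283 CPM in IgA mice. IgA mouse 6 lay among the vehicle mice. Its log2 fold change was 0.30 (SE 0.10, adjusted p = 0.179), and it rests on 66 to 148 reads per vehicle library and 152 to 185 reads per IgA library. Bad sg-1 stood at −0.044 and sg-3 at 0.016. The 3 sgRNAs of Bbc3 lay close together in ITPK1-KO cells (0.031, 0.033 and 0.031), and those of Bcl2l11 stood at 0.059, 0.0094 and 0.032. Those of Bid (−0.018, −0.036 and −0.045) and Pmaip1 (−0.018, −0.063 and −0.012) were all below 0, and none of these passed. All 3 sgRNAs had 1 sign for 4 members, and for 38.2% of the 76 genes.

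**Figure D3:**
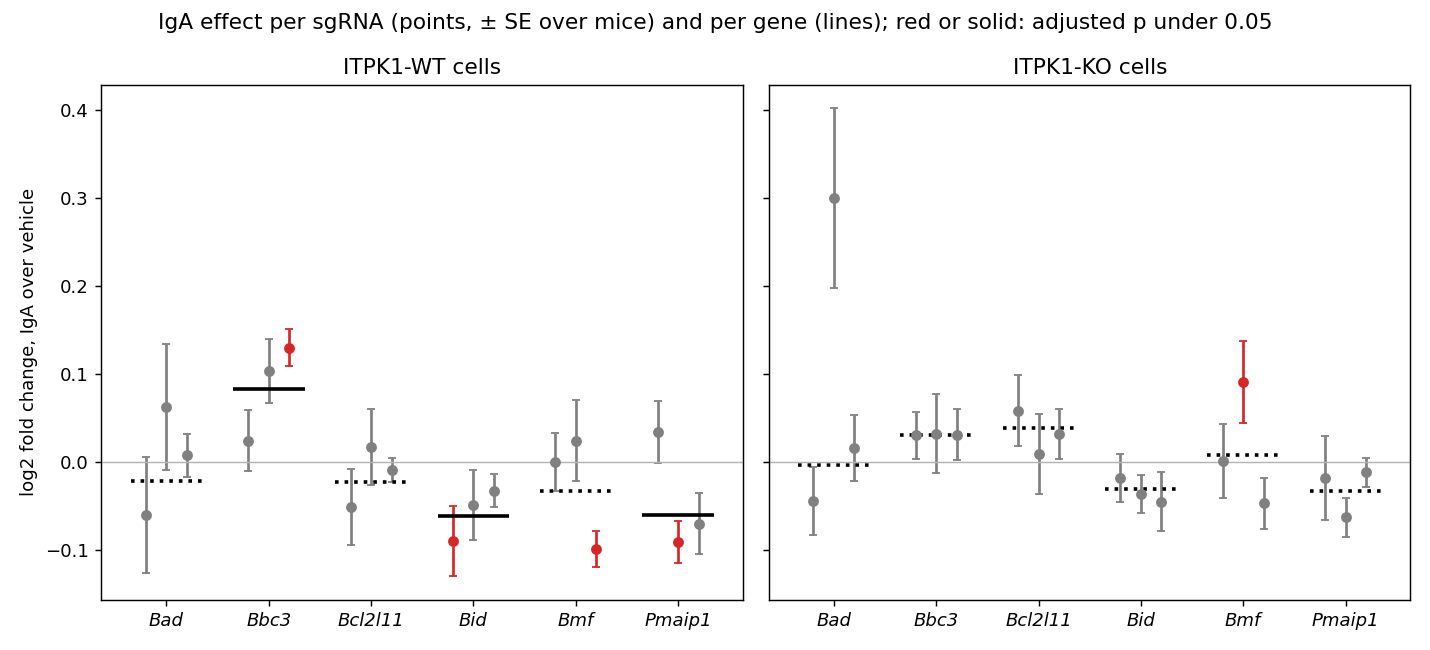
Log2 fold change of IgA over vehicle (vertical axis) in ITPK1-WT cells (left) and ITPK1-KO cells (right) for sg-1 to sg-3 of each BH3-only gene, from left to right, as points ± SE over 4 mice per arm. Lines are the gene's value from summed counts. Red points and solid lines have an adjusted p under 0.05. In ITPK1-WT cells 4 sgRNAs and 3 genes passed, in ITPK1-KO cells 1 sgRNA (Bmf sg-2) and no gene, and Bad sg-2 in ITPK1-KO cells reached 0.30 without passing.

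The calls for Bbc3, Bid and Pmaip1 in ITPK1-WT cells and their absence in ITPK1-KO cells did not amount to a difference between the backgrounds. In the fit of all 16 recovered libraries, the IgA effect in ITPK1-KO cells minus that in ITPK1-WT cells was −0.057 for Bbc3 (SE 0.023, adjusted p = 0.417 by edgeR, exact permutation p = 0.0571). It was 0.055 for Bcl2l11 (adjusted p = 0.362), 0.036 for Bmf (adjusted p = 0.535), 0.025 for Bid (adjusted p = 0.661), 0.022 for Pmaip1 (adjusted p = 0.725) and 0.012 for Bad (adjusted p = 0.854). By edgeR 0 of 6 genes passed and 0 had an unadjusted p under 0.05, against 6.49% of 77 entries called (2.6% higher and 3.9% lower), and DESeq2 gave 0. The ranges of the arms overlapped for all 6 members, and did not for 7.79% of all entries. Of the sgRNAs 0 of 18 passed by edgeR or DESeq2, 1 of them (Bcl2l11 sg-1, 0.10) at an unadjusted p under 0.05, against 3.97% of 252 called (1.59% higher and 2.38% lower). The most negative member sgRNA was Bbc3 sg-3 (−0.10, adjusted p = 0.476), and the most positive was Bad sg-2 (0.23, adjusted p = 0.722).

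The clearest difference within this gene family was between the backgrounds themselves. In every mouse, and before injection, Bbc3 sgRNAs were scarcer among ITPK1-KO cells. The log2 difference within a mouse was −0.37, −0.36, −0.41 and −0.34 in vehicle mice 1 to 4, and −0.44, −0.41, −0.39 and −0.47 in IgA mice 5 to 8. All 8 values are of the same sign and similar in size to the −0.43 before injection. The mean was −0.37 ± 0.030 in vehicle and −0.43 ± 0.034 in IgA mice (SD, n = 4 each), and the difference between these is the effect tested above. Over all recovered libraries the Bbc3 level in ITPK1-KO cells was 0.758 of that in ITPK1-WT cells (log2 −0.40, adjusted p = 4.69e-25 by edgeR, exact two-sided sign-flip permutation p = 0.00781, the smallest that 8 mice allow). Each background was a single transduced pool, so these p-values cover only the variation between mice. Genotype, clonal origin and transduced pool cannot be told apart in this difference. Both libraries of a mouse came from the same sheet. The sgRNAs concurred, with −0.38 for sg-1, −0.35 for sg-2 and −0.47 for sg-3 (adjusted p = 7.53e-28, 1.5e-19 and 2.24e-32). Before injection their values were −0.52, −0.27 and −0.45.

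Bad sgRNAs were more abundant in ITPK1-KO cells. The differences within mice 1 to 8 were 0.12, 0.17, 0.0053, 0.032, 0.15, 0.063, 0.074 and 0.094, all positive though close to 0 in mouse 3, and the value before injection was 0.13. The fitted log2 difference was 0.088 (adjusted p = 0.0003 by edgeR, exact permutation p = 0.00781). Bad sg-1 stood at 0.13 (adjusted p = 4.71e-05), with 7 of 8 mice positive. Bad sg-2 stood at 0.27 (adjusted p = 0.0191), with 6 of 8 mice positive and values from −0.038 to 0.61. Its group means were only 196 to 268 CPM, beside 7930 to 8490 CPM for Bad, so sg-2 adds little to the summed value. Bad sg-3 stood at 0.042 (adjusted p = 0.154). The call of sg-2 was lost without mouse 1, 2, 5 or 7 (adjusted p up to 0.0772).

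The other 4 genes lay close together in this comparison, at −0.021 for Bid, −0.019 for Pmaip1 and Bmf, and −0.017 for Bcl2l11 (adjusted p from 0.148 to 0.271 by edgeR). Before injection, in the single pair of libraries, Bcl2l11 stood further from 0, at −0.11. Pmaip1 stood at −0.037, Bid at −0.029 and Bmf at −0.013 there. Scaled to the non-targeting sgRNAs, which were themselves 0.025 higher in ITPK1-KO cells, these 4 passed at −0.042 to −0.046, Bbc3 stood at −0.42 and Bad at 0.063. All 6 members thus passed on that scale, beside 44 of 77 entries, of which 11 were higher and 33 lower. By TMM 2 of 6 members passed, against 57.1% of 77 entries (1 member higher and 1 lower, each against 28.6%), and all 8 mice had 1 sign for 2 members and for 39% of entries. Of the sgRNAs 8 of 18 passed, against 45.2% of 252. Of these, 3 were higher (background 21.4%) and 5 lower (background 23.8%). Beyond those of Bbc3 and Bad they were Bmf sg-1 (−0.12, adjusted p = 6.36e-06), Bid sg-3 (−0.075, adjusted p = 0.00451) and Bmf sg-3 (0.056, adjusted p = 0.0160). The last went against the first sgRNA of its own gene, and its call was lost without mouse 2, 4, 5 or 7 (adjusted p up to 0.123).

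**Figure D4:**
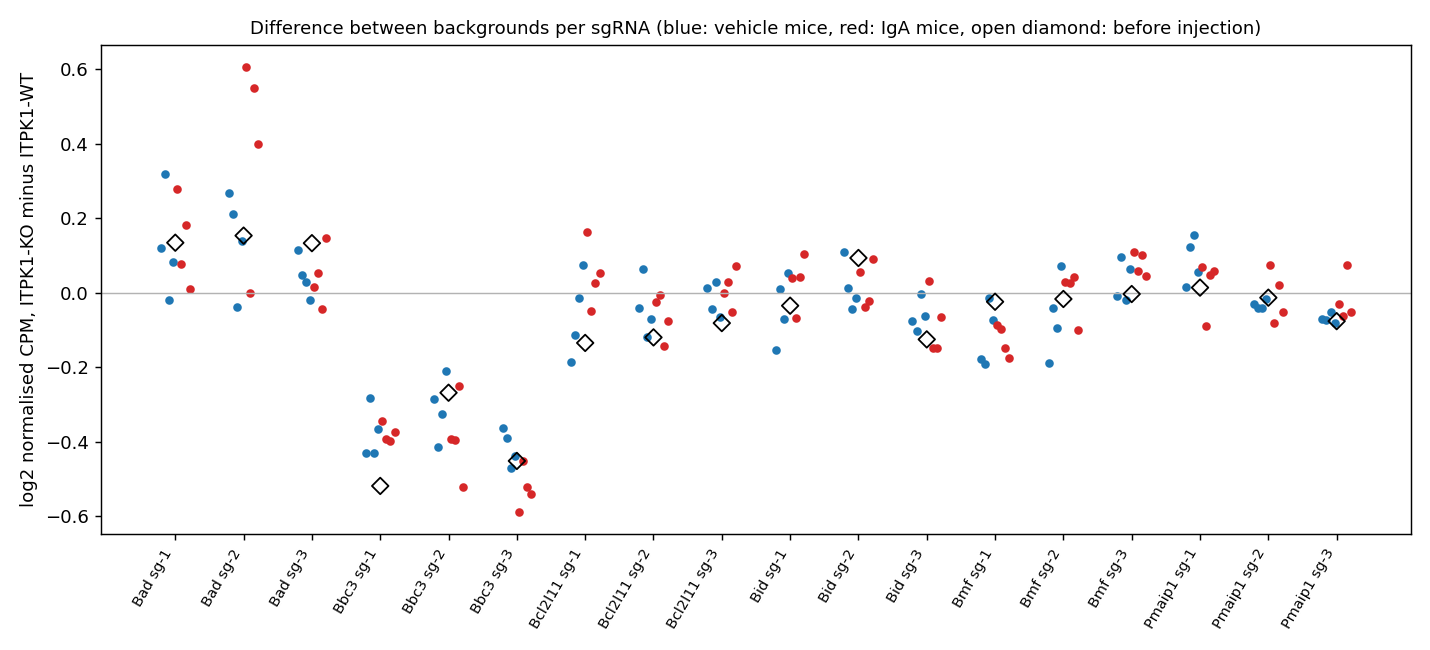
Log2 difference in normalised CPM between ITPK1-KO and ITPK1-WT cells of the same mouse (vertical axis) for each of the 18 sgRNAs. Blue points are the 4 vehicle mice, red points the 4 IgA mice, and open diamonds the single pair of libraries from before injection. All 24 Bbc3 values of mice lie between −0.59 and −0.21. Those of Bmf sg-1 also lie below 0 in every mouse (−0.19 to −0.014). The remaining sgRNAs have values on both sides of 0, with Bad sg-1 mostly above it (up to 0.32) and Bad sg-2 up to 0.61.

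Ranked from the highest to the lowest of the 77 entries in this comparison, Bad had rank 7 and Bbc3 rank 73, while Bcl2l11, Bmf, Pmaip1 and Bid had ranks 48 to 51. The members' median was −0.019 and that of all entries −0.0013. In the IgA comparison in ITPK1-WT cells Bbc3 had rank 11, and Pmaip1 and Bid ranks 67 and 68.

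**Figure D5:**
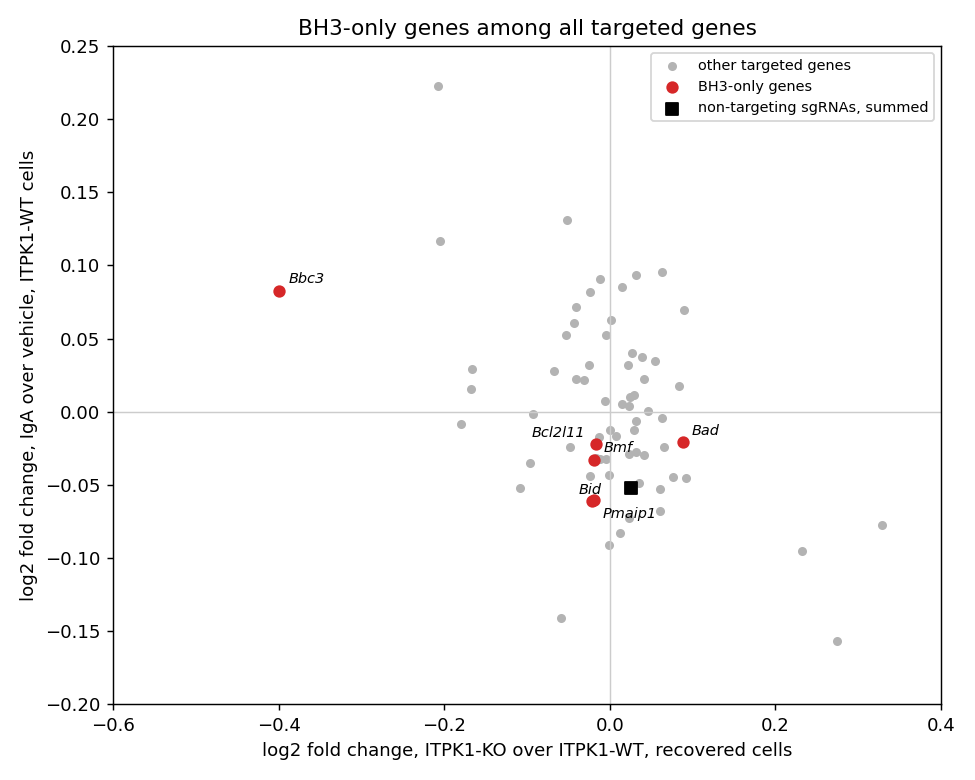
Each point is a targeted gene, with the log2 fold change between backgrounds in recovered cells on the horizontal axis and that of IgA over vehicle in ITPK1-WT cells on the vertical axis. BH3-only genes are red, and the black square is the sum of the non-targeting sgRNAs. Of the 77 entries, 6 lie outside the axes. Bbc3 (−0.40 and 0.083) lies far to the left, Bad (0.088 and −0.021) lies to the right, and the other 4 members lie between −0.021 and −0.017 on the horizontal axis.

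Recovered libraries were also set against the share of each sgRNA before injection. Each change is the log2 ratio of shares after subtracting what the median non-targeting sgRNA did in that library. In ITPK1-WT cells the median over the 18 sgRNAs was 0.024 ± 0.015 for vehicle and 0.073 ± 0.032 for IgA mice, beside 0.021 and 0.089 for all targeting sgRNAs. For ITPK1-KO cells it was 0.0065 ± 0.012 and 0.016 ± 0.019, beside −0.017 and −0.0036 (SD, n = 4 mice). With the library total as the reference in place of the non-targeting sgRNAs, the medians for ITPK1-WT cells were 0.0058 (vehicle) and 0.0017 (IgA), which turned the order of the arms, and those for ITPK1-KO cells were 0.022 and 0.023. As the mean of the changes of its sgRNAs, Bbc3 stood in ITPK1-WT cells at 0.030 ± 0.028 for vehicle and 0.18 ± 0.025 for IgA mice. In ITPK1-KO cells it stood at 0.038 ± 0.020 and 0.074 ± 0.033. For vehicle mice in ITPK1-WT cells, Bbc3 sg-2 stood at 0.15, sg-1 at −0.022 and sg-3 at −0.034. Bid, averaged in the same way, stood at 0.067 ± 0.0088 and 0.068 ± 0.031 in ITPK1-WT cells, so on this scale its arms had nearly the same mean. Over the single sgRNAs the range in ITPK1-WT cells of IgA mice was −0.048 (Bmf sg-3) to 0.31 (Bbc3 sg-2). In ITPK1-KO cells of IgA mice it was −0.070 (Pmaip1 sg-2) to 0.30 (Bad sg-2). With a single starting library for each background, these changes were given no test. The vehicle libraries and the starting libraries were on different sheets, so their change cannot be told apart from the sheet.

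Among the other genes of mitochondrial apoptosis, 12 of a list of 28 were in the library, covering the pore proteins, the apoptosome and caspases, inhibitors of apoptosis and their antagonist, and the death receptor arm upstream of BID. In ITPK1-WT cells IgA libraries had more sgRNAs against APAF1, the apoptosome scaffold (0.070, adjusted p = 0.00633 by edgeR), and against Casp9, its initiator caspase (0.052, adjusted p = 0.0270). They had fewer against Fadd, the adaptor of death receptors (−0.14, adjusted p = 0.000251), CASP2, an initiator caspase that can cleave BID (−0.091, adjusted p = 0.00189), and CASP6, an effector caspase (−0.049, adjusted p = 0.0412). So 2 of the 12 were higher and 3 lower, against 20.8% and 18.2% of all 77 entries, which is near the background. The remaining 7 did not pass. Named after their values were seen, they include the pore proteins Bax (−0.0083) and Bak1 (0.032) and the initiator caspase Casp8 (−0.032). The median of the 12 was −0.020. In ITPK1-KO cells 0 of 12 passed, against 13% of 77 entries. APAF1 (0.039) and CASP2 (−0.045) were among those with an unadjusted p under 0.05. No gene of the list passed the test of the difference between backgrounds, against 6.49% of all entries. In that test Fadd (0.097, adjusted p = 0.304) had an unadjusted p under 0.05. Between backgrounds, 3 were higher in ITPK1-KO cells (APAF1, Birc2 and CASP6, 0.035 to 0.090), where 28.6% of all entries were called in each direction. Among those that were lower were Bax at −0.18 (adjusted p = 7.06e-17 by edgeR) and Fadd at −0.060 (adjusted p = 0.0147). The direction at Bax, the effector that PUMA activates, was that of Bbc3, whereas Bak1 stood at −0.025 (adjusted p = 0.105).

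The authors' deposited table for ITPK1-WT cells gave log2 fold changes of 0.095, 0.18 and 0.20 for Bbc3 sg-1 to sg-3, with an FDR of 0.998 for each. In the authors' deposited table no sgRNA of that background had an FDR under 0.05. In the authors' deposited table for ITPK1-KO cells, Bad sg-2 had the lowest FDR of the members (log2 fold change 0.40, FDR 0.583), and 12 sgRNAs of the library had an FDR under 0.05. The order of the 3 Bbc3 sgRNAs in ITPK1-WT cells was the same in the authors' deposited table as in the fit above, and both rest on the same counts. For sg-1 to sg-3 in ITPK1-WT cells, the authors' deposited table gave −0.020, −0.024 and 0.027 for Bid. It gave 0.091, −0.021 and 0.0043 for Pmaip1. Bid sg-3 and Pmaip1 sg-3 thus had the opposite sign there to the fit above (−0.032 and −0.070). In the authors' deposited table for ITPK1-WT cells, Bcl2l11 sg-1 (0.017 against −0.051 in the fit) and sg-3 (0.070 against −0.0086) did so too. In the authors' deposited table for ITPK1-KO cells, Bid sg-1 (0.0063 against −0.018) and Pmaip1 sg-3 (0.017 against −0.012) differed in sign. In each case the authors' value was the positive one.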

How the data were processed

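The deposited table holds raw sgRNA counts. The authors, as the design text states, aligned reads to the sgRNA library, removed reads with mismatches and scored sgRNAs with MAGeCK RRA (version 0.5.6). Which aligner they used is not given in the sources used here. Deposited alongside, the authors' comparison tables hold MAGeCK's log2 fold change, p-value and FDR per sgRNA. The legend that the authors deposited gives the treatment of each mouse and the cells sorted, in another unit (marked M in its header, per the file headers). Coordinates are left out, as no build is named in the files, and sequences of Pmaip1 sgRNAs are not printed.

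The test was edgeR 4.0.16 in R 4.3.3 (glmQLFit and glmQLFTest, TMM, sgRNAs or genes with a mean of at least 10 reads, Benjamini-Hochberg over all sgRNAs or all 77 entries, threshold 0.05). Genes were tested on counts summed over their sgRNAs. Each background was fitted apart for IgA, and all 16 recovered libraries together for the other comparisons. Fold changes are from these fits, each scaled within its own libraries. SEs and exact permutation tests are from log2 normalised CPM per mouse, scaled over all 18 libraries. Reads carry no molecular identifiers, so intervals cover counting error only. DESeq2 1.42.0 was an alternative. The procedure was also run on simulated counts. These held no sheet or mouse effects, so they cannot show how such effects change the calls here. Both libraries of a mouse come from the same animal, so mouse numbers pair the backgrounds. The correlation of their deviations from the group means over 246 sgRNAs ran from −0.041 to 0.31. Sequencing sheets were inferred from sample numbers repeated in the read-file names. The members, the pathway list and the tests were chosen with earlier results of these data known. All members and sgRNAs are described, and of the pathway list those past the threshold are named, apart from some that are not reported here. A few others of that list are named with values that did not pass, chosen after their values were seen. For likeness, the 2 nearest genes of each member are named.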

Additional observations from a re-analysis of the deposited data

Results flagged for a closer look

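The level of Bcl2l11 in ITPK1-KO cells of IgA mouse 7 was 13595 CPM, whereas the 3 other IgA mice lay between 14183 and 14211 CPM. The gap to the nearest of them was 0.954 of the range of the group, above Dixon's 95% critical value for 4 samples. It was 1 flag among 96 groups of 4 libraries examined (6 genes and 18 sgRNAs in 4 groups), of which chance flags about 1 in 20. Without mouse 7 the IgA effect on Bcl2l11 in ITPK1-KO cells was 0.051, against 0.039 with it, and did not pass (adjusted p = 0.103 by edgeR).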

How the results depend on the processing

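Counts of calls are given first. In ITPK1-WT cells the count of 3 member genes became 1 when scaled to non-targeting sgRNAs (36 of 77 entries) and 1 with the sheet as a covariate (9 of 77), and ran from 2 to 3 with a mouse left out. The count of 4 sgRNAs became 2 (76 of 252 in the library) and 0 (17 of 252) under the same settings and ran from 2 to 7. In ITPK1-KO cells the 1 sgRNA called became 0 by DESeq2's Wald test, 0 with the sheet and 0 in the joint fit, and ran from 0 to 1 with a mouse left out. For the difference of the IgA effects, the 0 sgRNAs called ran from 0 to 1. Between backgrounds, 2 genes became 6 when scaled to non-targeting sgRNAs (44 of 77 entries), and ran from 2 to 3 with a mouse left out. The direction of small effects also turned. Scaled to non-targeting sgRNAs, Bad (0.030), Bcl2l11 (0.029) and Bmf (0.019) were above 0 in ITPK1-WT cells, Bad (0.012) in ITPK1-KO cells, and the difference of the IgA effects fell below 0 for Bad (−0.019), Bid (−0.0057) and Pmaip1 (−0.0089). As the mean of the sgRNA fold changes, Bad stood at 0.0036 (ITPK1-WT) and 0.091 (ITPK1-KO). With the sheet as a covariate, Bad (0.039), Bid (0.0048) and Pmaip1 (0.00063) were above 0 in ITPK1-KO cells. With a mouse left out, Bad ran from −0.017 to 0.012 and Bmf from −0.011 to 0.022 in ITPK1-KO cells, and the difference for Bad from −0.011 to 0.043. None of the effects that turned had passed its test. The causes were not tested, apart from the construction of each setting. With the library total as the reference, the median change from before injection was 0.0058 (vehicle) and 0.0017 (IgA) in ITPK1-WT cells and 0.022 (vehicle) in ITPK1-KO cells. With the mouse as a replicate block (paired fit), Bbc3 stood at −0.40 and Bad at 0.088 between backgrounds, 2 genes and 8 sgRNAs were called as before, and no call of a member changed. Bbc3 kept its direction and its call under all settings run for ITPK1-WT cells (with a mouse left out, 0.074 to 0.095) and between backgrounds (−0.41 to −0.39). Depth limited Bad sg-2, which had as few as 66 reads in a library.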

Other observations

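Profiles over the 16 recovered libraries were compared by the root mean square difference of centred log2 normalised CPM, and the 2 targeted genes with the smallest difference are given for each member. Beside them stand the member's own spread about its mean, which is its difference from a flat profile, and its median difference from all genes. For Bbc3 the nearest genes were Spata2 (0.11) and Bax (0.12), with an own spread of 0.20 and a median of 0.21. For Bad they were Casp12 and Birc2 (both 0.035), with an own spread of 0.057 and a median of 0.068. For Bid they were Pmaip1 (0.026) and Rab25 (0.028), with an own spread of 0.034 and a median of 0.057. For Pmaip1 they were Rab25 (0.022) and Bid (0.026), with an own spread of 0.035 and a median of 0.057. For Bcl2l11 they were 4933439F11Rik (0.030) and Tnfrsf21 (0.032), and for Bmf Tnfrsf19 (0.029) and Rab25 (0.032). The own spread of these members was 0.031 and 0.029, so their nearest genes were about as far from them as a flat profile, and the medians were 0.053 and 0.054. These distances describe libraries that share pools and mice, and were not tested.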
